A study of Mus musculus with 18 samples.

Results

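The Rab family of small GTPases was followed in sorted erythroid progenitors of mouse bone marrow, at the CFU-E stage and the PreCFU-E stage before it. Members were taken by name, as every gene symbol of the count table made of Rab, a number and at most 1 letter from a to d. This gave 59 members among 21967 genes.  The mice carried Scf alleles, where Scf is the gene of stem cell factor (Kitl), the ligand of the receptor Kit. Scf KO/FL;Lepr-Cre mice, called Lepr-Cre mice here, had 1 knockout and 1 floxed allele with Cre driven from the leptin receptor gene, which marrow stromal cells express. Scf KO/FL mice had the same alleles without Cre, and Scf FL/FL mice had floxed alleles alone. Each genotype had 3 mice, lettered A to C, and every mouse gave 1 CFU-E and 1 PreCFU-E library, 18 libraries in all. Mice lettered B were female and the others male, and no age was stated.

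Rab proteins are switches on membranes. Bound to GTP, each recruits its effectors to a vesicle or organelle and so sets where that membrane moves, docks and fuses. Exchange factors load GTP, GTPase-activating proteins turn the switch off, and escort proteins and a prenyltransferase attach the lipid that holds a Rab on its membrane. In erythroid cells the best known membrane route is the transferrin cycle, in which the transferrin receptor brings iron in through early endosomes and returns to the surface by recycling endosomes. Regulated exocytosis, the release of stored granules, belongs instead to mast cells, platelets, neutrophils and cytotoxic lymphocytes.

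The libraries held 3541066 to 9389122 counts. A count of 0 allows up to 3 counts, which over the 3 libraries of a group is 0.121 to 0.174 CPM, for counting error only. CPM are depth-scaled counts, here by library total and TMM factor. Kitl had 2 counts in the 18 libraries together, so these progenitors cannot show the deletion in stroma. Kit, on whose protein the cells were enriched, was lower in Lepr-Cre than in FL/FL libraries in PreCFU-E (log2 fold change -0.88, SE 0.12) and in CFU-E (-0.73, SE 0.14), with adjusted p of 4.58e-05 and 0.00539 in edgeR's quasi-likelihood test. Of the erythroid markers fixed for the cells, all 14 averaged at least 1 CPM in each CFU-E group and in Lepr-Cre PreCFU-E. In KO/FL and FL/FL PreCFU-E 11 and 12 did, and Slc4a1 averaged 0.147 and 0 CPM. The summed level of the 14 genes was 8640 to 9630 CPM in CFU-E libraries and 6810 to 8130 CPM in PreCFU-E libraries, mostly from Car1, Car2 and Ermap. Car1 and Nfe2 went the other way, with higher group means in PreCFU-E. The 10 early progenitor markers summed to 607 to 1400 CPM in CFU-E libraries and 1360 to 3230 CPM in PreCFU-E libraries, although Cd34, a defining gene among them, was at most 0.286 CPM in any group mean. The early progenitor sum also differed with genotype, at 1360 to 1570 CPM in Lepr-Cre, 2410 to 3020 CPM in KO/FL and 2880 to 3230 CPM in FL/FL PreCFU-E. In bulk samples, fewer cells of a type and less RNA per cell cannot be told apart.

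Of the 59 members, 32 had a count in all 18 libraries, 22 in some of them and 5 in none. The 5 with no count were Rab4a, which acts in fast recycling from early endosomes, and Rab9b, Rab15, Rab39b and Rab43. Over the 18 libraries together, 3 counts equal 0.0223 CPM. For Rab43, 75.4% of the exonic bases are shared on the same strand with the predicted gene Gm45140 in GENCODE M21, and for Rab4b 65.0% with Gm21983, so that reads of these members may not be assigned to them. Rab4a has no such overlap in GENCODE M21, but the annotation used for the counting is not stated. Its 0 counts therefore do not show that its RNA is absent. Rab24 and Rab2b share 62.4% and 64.0% of their exonic bases with genes on the opposite strand, and Rab6a 19%, so their values are uncertain, since the strand setting of the counting is not stated.

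Each member was placed in a level class from its group means. There were 27 broad members, with at least 5 CPM in all 6 groups, 16 low members, under 1 CPM in all 6 groups, and 1 member restricted to a stage, with at least 1 CPM in a stage's 3 groups and 4-fold or more above the other stage in every genotype. The remaining 15 were intermediate. The stage-restricted member was Rab37, at PreCFU-E, and no member was restricted to CFU-E. Just inside the limit of 5 CPM, Rab33b had a lowest group mean of 5.97 CPM, and just outside it Rab29 had 4.96 CPM. The nearest to Rab37 was Rab27b, which was 3.62-fold higher at PreCFU-E in Lepr-Cre, 3.78-fold in KO/FL and 3.41-fold in FL/FL mice. At a limit of 3-fold it would join Rab37. Because this class uses the difference between stages, the stage comparison of Rab37 given further on describes it and is no independent support.

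**Figure D1:**
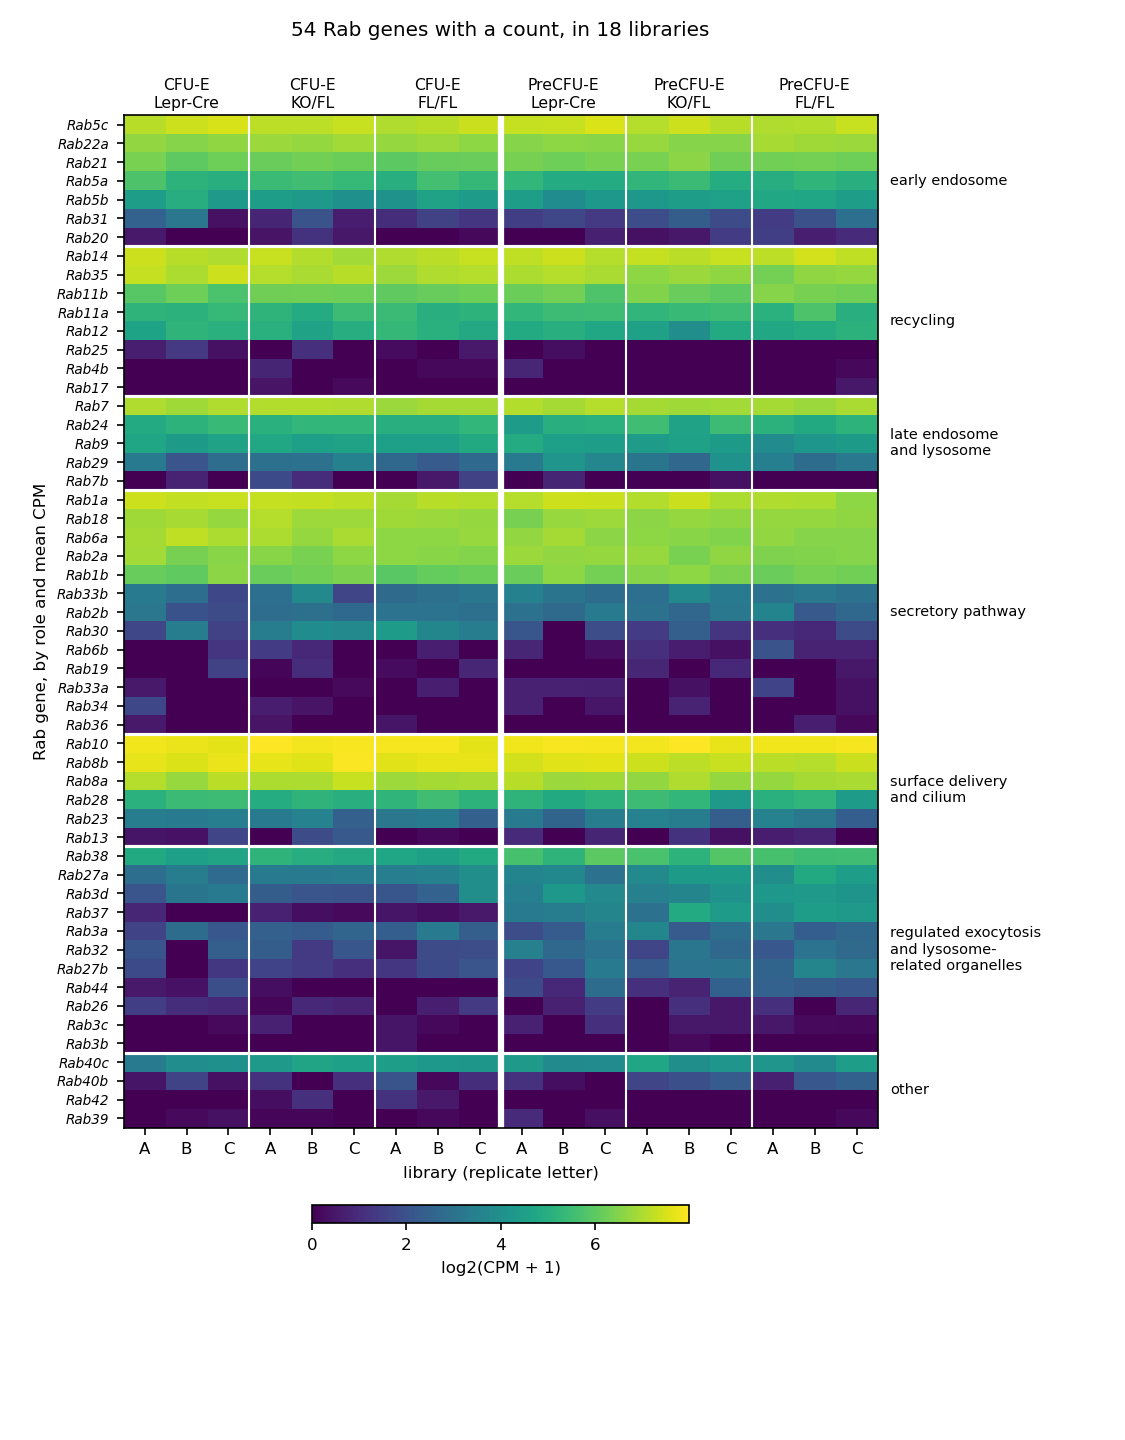
Heat map of log2(CPM + 1) for the 54 Rab genes with a count (rows, grouped by role and ordered by mean CPM) in the 18 libraries (columns, 3 per group, CFU-E on the left). Rab10, Rab8b and Rab14 are bright across the libraries, and the row of Rab37 is dark in the 9 CFU-E libraries, at 0 to 0.826 CPM, and lit in the 9 PreCFU-E libraries, at 7.13 to 28.4 CPM.

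Levels were compared between genes as CPM per kilobase of GENCODE M21 exon. The deposited RPKM could not serve, because the gene lengths they imply did not follow annotated lengths. Each gene's counts, library totals and RPKM gave a single length, but over 15402 genes its Spearman correlation with exonic length was 0.123, and over the 54 members with a count 0.0465. On the scale per kilobase, 10 members made up 64.7% to 73.3% of the family's summed level in a library. They were Rab5c (69.2 ± 7.31 CPM per kilobase, SD over 18 libraries), Rab10 (65.1 ± 4.01), Rab7 (47.3 ± 3.27), Rab2a (44.9 ± 4.78), Rab35 (43.8 ± 7.83), Rab8b (39.5 ± 6.35), Rab1a (37.6 ± 4.91), Rab1b (34.7 ± 5.0), Rab6a (29.0 ± 4.38) and Rab8a (26.3 ± 3.23). Neighbours in this order differed by less than the larger of their SDs, apart from Rab10 and Rab7 and from Rab1b and Rab6a. They cover the main routes: Rab5c fuses early endosomes, Rab7 serves late endosomes and lysosomes, Rab1a, Rab1b and Rab2a the path from endoplasmic reticulum to Golgi, Rab6a the Golgi, Rab8a, Rab8b and Rab10 delivery to the surface, and Rab35 recycling. Rab10 was the steadiest of the 10, with a coefficient of variation of 6.17%. The order depends on the length used: with the median length of protein-coding transcripts, 6 of these 10 stayed in the top 10, and Rab14, Rab18, Rab11a and Rab11b took the other places.

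Where several close relatives exist, the libraries held them in unequal measure. Rab5c made up 80.9% to 89.5% of the summed Rab5a, Rab5b and Rab5c level per kilobase. Rab2a made up 93.8% to 98.6% of the Rab2 pair, and Rab6a 97.8% to 100% of the Rab6 pair. Rab1a and Rab1b were near parity, with Rab1a at 49.8% to 58.9% in CFU-E and 43.2% to 54.9% in PreCFU-E libraries. Rab11a and Rab11b, both on recycling endosomes, were near parity as well, and Rab25, their epithelial relative, was at most 3.69%. Rab8b was the larger of its pair, with 59.9% to 63.8% in CFU-E and 52.7% to 63.4% in PreCFU-E libraries. Among the granule Rabs the balance of the Rab3 group differed by stage: Rab3d made up a median of 32.3% (22% to 63.4%) in CFU-E against 60.1% (31.3% to 70.5%) in PreCFU-E libraries, and Rab3a held most of the rest. The ranges of the stages overlapped. These shares also rest on annotated lengths.

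**Figure D2:**
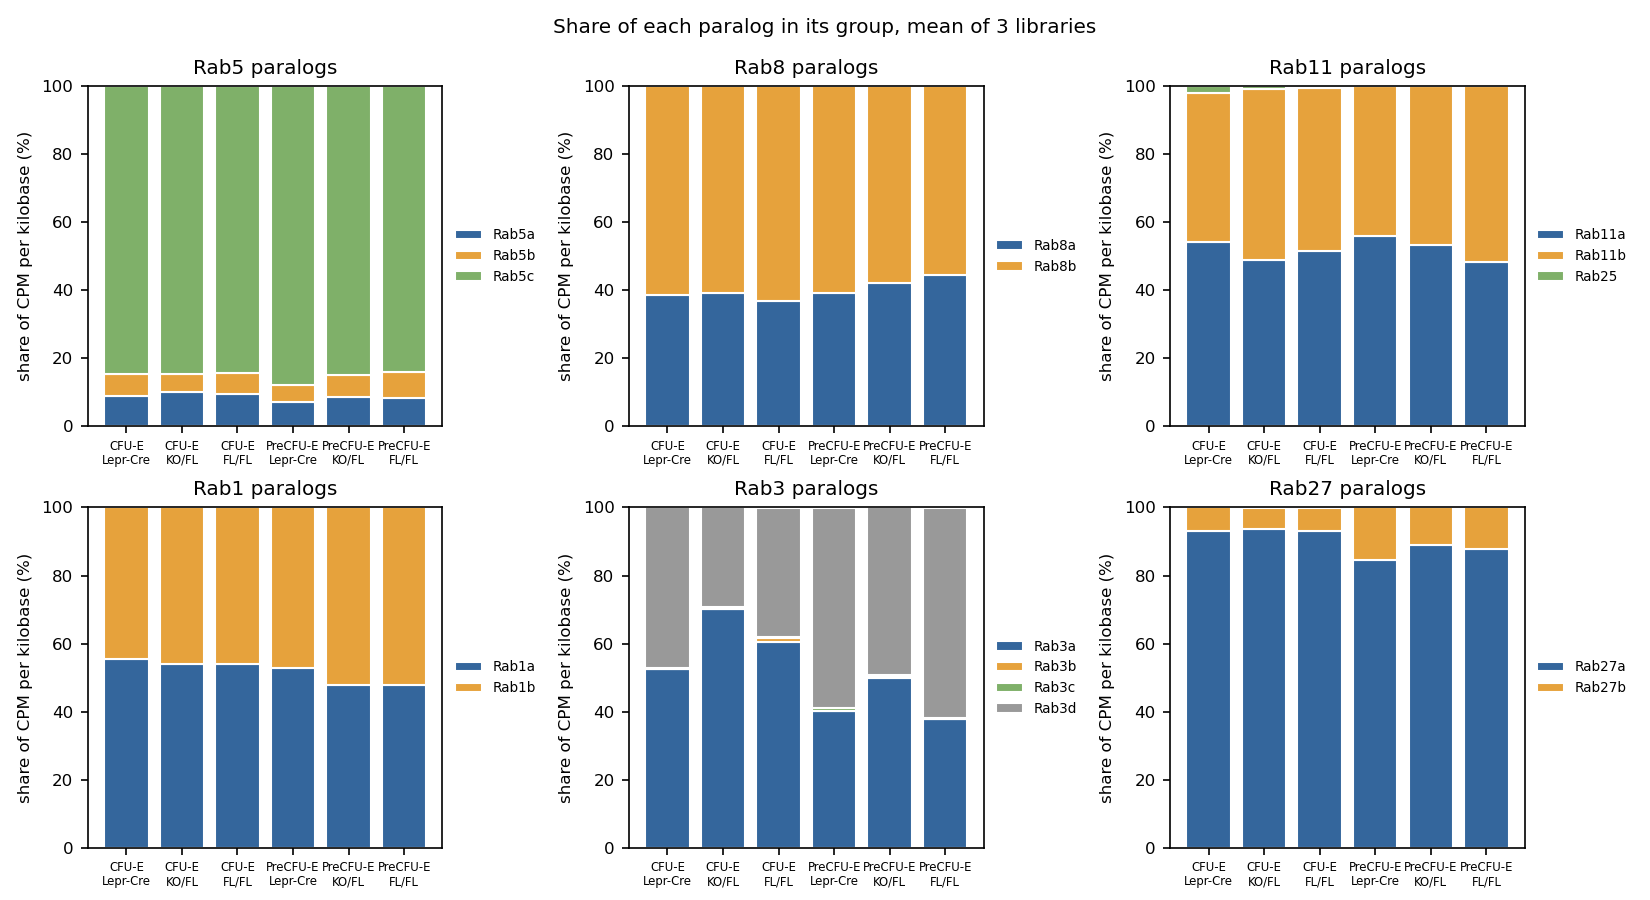
Stacked bars of the mean share (%, 3 libraries) of each paralog in the summed CPM per kilobase of its group, for 6 paralog groups (panels) in the 6 groups of libraries. Rab5c fills more than 80% of its bars, Rab1a and Rab1b divide theirs almost evenly, and the Rab3d part is larger in the PreCFU-E bars than in the CFU-E bars.

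Of the Rab genes that passed the test in a comparison below, the promoters of 4 are shown (RefSeq, GRCm38.p6, from 250 bases before to 50 after the start). They stand for both directions: Rab35 and Rab8b were higher in CFU-E, and Rab3d and Rab27a were lower. Capitals mark CCNCNCCC on either strand, the letters of a KLF site, where overlapping matches were joined.
Rab35, chr5:115631737-115632036, plus strand: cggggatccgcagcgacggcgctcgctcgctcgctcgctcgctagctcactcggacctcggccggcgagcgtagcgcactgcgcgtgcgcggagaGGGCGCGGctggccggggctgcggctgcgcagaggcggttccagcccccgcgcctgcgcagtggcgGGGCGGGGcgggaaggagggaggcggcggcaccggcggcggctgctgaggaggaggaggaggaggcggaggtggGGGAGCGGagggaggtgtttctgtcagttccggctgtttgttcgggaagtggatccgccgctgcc
Rab8b, chr9:66919656-66919955, minus strand: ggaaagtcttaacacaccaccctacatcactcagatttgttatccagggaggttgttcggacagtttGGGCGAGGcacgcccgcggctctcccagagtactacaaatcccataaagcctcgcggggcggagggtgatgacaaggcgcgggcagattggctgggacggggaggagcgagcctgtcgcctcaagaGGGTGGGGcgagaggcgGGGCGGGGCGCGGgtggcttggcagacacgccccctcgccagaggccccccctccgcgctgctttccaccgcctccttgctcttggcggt
Rab3d, chr9:21918134-21918433, minus strand: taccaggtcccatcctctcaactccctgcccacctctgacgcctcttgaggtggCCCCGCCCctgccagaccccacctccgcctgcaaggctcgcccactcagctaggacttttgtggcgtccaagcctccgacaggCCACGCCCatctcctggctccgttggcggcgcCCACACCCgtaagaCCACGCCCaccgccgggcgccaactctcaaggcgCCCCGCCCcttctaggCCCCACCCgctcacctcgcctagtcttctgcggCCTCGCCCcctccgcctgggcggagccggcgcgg
Rab27a, chr9:73044560-73044859, plus strand: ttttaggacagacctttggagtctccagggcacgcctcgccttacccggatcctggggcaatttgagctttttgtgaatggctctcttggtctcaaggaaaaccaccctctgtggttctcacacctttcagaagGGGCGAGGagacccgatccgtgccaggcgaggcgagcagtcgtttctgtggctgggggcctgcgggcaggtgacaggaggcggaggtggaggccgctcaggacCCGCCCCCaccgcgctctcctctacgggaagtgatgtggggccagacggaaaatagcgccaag
Matches were found in all of these, 3 in Rab35, 4 in Rab8b, 7 in Rab3d and 2 in Rab27a, so in members of both directions. A second promoter of Rab27a, at chr9:73063898-73064197 and not shown, held 4. No promoter entry was available for the other called members, Rab30, Rab37, Rab38 and Rab44. Over the family, 48 members had 60 promoters, of which 66.7% held CCNCNCCC, against 49.5% of all 32851 promoters of the same length. A GATA match (GATA with A or T before it and A or G after it, either strand) was in 23.3% of the family's promoters against 29.8% of all, and in none of those shown. The ETS letters CCGGAAGT were in 3.33% against 3.89%. GC content followed the level classes: the median was 63.7% for promoters of broad, 60.5% for intermediate and 57.7% for low members, against 52.7% for all promoters, and the median number of CpG was 27, 19, 10 and 7 in the same order. The KLF letters are mostly C, and the part of GC content in their share was not tested. These are descriptions of letters and no test was made.

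The first comparison asks how the family differs between the stages within a genotype. Of the 59 members, 40 passed the filter on low counts. Rab38, which serves lysosome-related organelles, was lower in CFU-E in every genotype, and the granule Rabs Rab3d, Rab27a and Rab44 in some. Rab35 and Rab8b were higher in CFU-E of KO/FL and of FL/FL mice. In FL/FL mice 3 members were higher and 4 lower in CFU-E than in PreCFU-E, 17.5% of those tested, where 18.3% of all tested genes were called (8.99% higher and 9.3% lower). In KO/FL mice 2 were higher and 5 lower, again 17.5%, against 14.1% of all genes (6.89% and 7.18%). In Lepr-Cre mice none was higher and 2 were lower, 5%, against 7.25% of all genes (3% and 4.25%). These counts include Rab37, whose class was set by this stage difference, in every genotype. In KO/FL and FL/FL mice they also include Rab44, kept by the filter through its PreCFU-E libraries. With these members counted, the share called was near the background in each genotype. The 3 libraries of the stages did not overlap for 6 members in Lepr-Cre, 13 in KO/FL and 14 in FL/FL mice, where the background was 22.2%, 31% and 34.9% of genes. The median log2 fold change of the members was -0.04, -0.04 and -0.06, against -0.007, 0.003 and 0.014 for all genes.

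Rab37, known from mast cell granules and insulin-secreting cells, had 7, 0 and 0 counts in CFU-E of Lepr-Cre mice, against 67, 84 and 89 in their PreCFU-E. It had 6, 2 and 1 counts in CFU-E of KO/FL mice, against 26, 205 and 139 in PreCFU-E, and 2, 2 and 4 in CFU-E of FL/FL mice, against 139, 141 and 134 in PreCFU-E. The stages did not overlap in any genotype. The log2 fold change was -4.95 (SE 0.69), -5.65 (SE 0.67) and -5.59 (SE 0.68) in Lepr-Cre, KO/FL and FL/FL mice. No p is given, since its class was set by this difference. Rab37 passed the filter through its PreCFU-E libraries alone and was not tested among CFU-E libraries. It lies on chromosome 11 at 115091431 to 115162236 of GRCm38, plus strand, and shares no exonic base with another gene there. Rab37 was not accompanied by mast cell markers: the 12 mast cell, basophil and eosinophil genes summed to at most 6.18 CPM in any library, 8 to 9 of the 12 were at 0 counts in each PreCFU-E group, and Cpa3, the mast cell carboxypeptidase, averaged at most 1.79 CPM.

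Rab38, whose loss causes the chocolate coat of mice through its part in melanosomes, was the highest granule or lysosome-related member. It had 27.9, 21.7 and 24.4 CPM in CFU-E of Lepr-Cre mice, against 49.9, 35.5 and 62.8 CPM in PreCFU-E. In FL/FL mice it had 24.9, 22.3 and 27.8 CPM in CFU-E, against 49.4, 44.7 and 46.0 CPM in PreCFU-E. The stages were apart in these genotypes, and in KO/FL mice, with 35.6, 30.6 and 27.1 CPM in CFU-E against 50.4, 35.2 and 56.5 CPM, they overlapped. The log2 fold change was -0.999 (SE 0.21), -0.61 (SE 0.21) and -0.90 (SE 0.21) in Lepr-Cre, KO/FL and FL/FL mice, with edgeR adjusted p of 0.00246, 0.0497 and 0.0026. In KO/FL mice the call was lost when any of 5 of the 6 libraries was left out (adjusted p up to 0.22).

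Rab3d, a secretory granule Rab, had 4.15, 3.29 and 3.16 CPM in CFU-E of KO/FL mice, against 10.1, 11.5 and 16 CPM in PreCFU-E (log2 fold change -1.84, SE 0.44, edgeR adjusted p 0.00367). In FL/FL mice it had 3.38, 4.69 and 14.3 CPM in CFU-E, against 18.2, 18.6 and 16.7 CPM in PreCFU-E (-1.24, SE 0.42, adjusted p 0.0354). CFU-E replicate C stood near the PreCFU-E level, and leaving out any library but that one took the call away (adjusted p up to 0.188). In Lepr-Cre mice, with 3.30, 7.53 and 8.63 CPM in CFU-E against 9.92, 18.3 and 12.5 CPM, the stages did not overlap and the adjusted p was 0.133, or 0.0487 with the mouse as a block.

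Rab44, a large atypical Rab with calcium-binding motifs, had 0 counts in the 3 CFU-E libraries of FL/FL mice, against 45, 28 and 25 in PreCFU-E. With 3 counts as the group's floor, it was at least 32.0-fold lower in CFU-E (edgeR adjusted p 0.00134). Like Rab37 it passed the filter through its PreCFU-E libraries and was not tested among CFU-E libraries, so that a gene kept for testing in this way had to differ. In KO/FL mice it had 2, 0 and 0 counts in CFU-E, against 4, 5 and 31 in PreCFU-E, a ratio of 28.7 (95% exact interval 7.45 to 246, counting error only), with an adjusted p of 0.0227. Most of those PreCFU-E counts came from replicate C, without which the adjusted p was 0.171. Without CFU-E replicate B or C it was 0.0922 and 0.089. In Lepr-Cre mice it had 4, 2 and 19 counts in CFU-E, against 18, 8 and 47 in PreCFU-E, and the stages overlapped.

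Rab27a, which docks cytotoxic and melanosome granules and is mutated in the ashen mouse, had 8.76, 8.50 and 9.19 CPM in CFU-E of KO/FL mice, against 12.9, 19.7 and 19.7 CPM in PreCFU-E (log2 fold change -0.998, SE 0.32, edgeR adjusted p 0.0311). This call held without PreCFU-E replicate A and was lost without any other single library. In FL/FL mice it had 9.77, 10.4 and 14.4 CPM in CFU-E, against 14.4, 27.7 and 21 CPM, with an edgeR adjusted p of 0.0544, or 0.0452 with the mouse as a block. DESeq2, its size factors in edgeR and limma on RPKM with either pseudocount also called it there. Its relative Rab27b had log2 fold changes of -1.81, -1.92 and -1.74 in Lepr-Cre, KO/FL and FL/FL mice and passed edgeR's test in none of them. DESeq2 called it in KO/FL and FL/FL mice, and edgeR with no filter in KO/FL mice.

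By role, the 11 members of regulated exocytosis and lysosome-related organelles included 9 that were tested. Of these, 2 were called lower in Lepr-Cre, 5 in KO/FL and 4 in FL/FL mice and none higher, where 4.25%, 7.18% and 9.3% of all genes were called lower. These counts include Rab37, whose class was set by the stage difference, and Rab44, kept by the filter through PreCFU-E. Without them, a count made after the values were seen, 1 of 7 fell in Lepr-Cre (Rab38), 3 in KO/FL (Rab27a, Rab38 and Rab3d) and 2 in FL/FL mice (Rab38 and Rab3d). Rab3a, Rab26, Rab27b and Rab32 passed edgeR's test in no genotype. The roles were assigned with earlier results known, so the counts describe these members and are no independent support. The summed level of the role per kilobase was 22.7 ± 1.41, 26.6 ± 3.01 and 24.6 ± 3.80 in CFU-E of Lepr-Cre, KO/FL and FL/FL mice, against 46.1 ± 10.1, 47.8 ± 7.06 and 49.5 ± 1.09 in PreCFU-E (SD, n = 3 each). As a share of the whole family it was 3.53%, 4.09% and 4.04% in CFU-E against 6.96%, 7.6% and 8.17% in PreCFU-E. Rab38 alone gave 15.6, 19.7 and 15.8 CPM per kilobase of the sum in CFU-E of Lepr-Cre, KO/FL and FL/FL mice. In PreCFU-E it gave 31.3, 30.0 and 29.6, so the sum and the share describe mostly this member. Rab37 and Rab44 are also in the sum. Early endosome members summed to 116 ± 5.52, 112 ± 2.62 and 106 ± 8.38 CPM per kilobase in CFU-E against 115 ± 7.44, 111 ± 9.86 and 109 ± 5.09 in PreCFU-E. The early progenitor marker sum was lower in CFU-E as well, and the stroma markers summed to 0.473 to 6.78 CPM in CFU-E against 6.92 to 26.5 CPM in PreCFU-E libraries, mostly Col1a2 and Pdgfrb. Nkg7, a gene of cytotoxic granules on the T and NK cell list, averaged at most 0.472 CPM in a CFU-E group against 2.82 to 3.37 CPM in PreCFU-E groups, while Cd3e, Cd8a and Klrb1c had 0 counts. The part of these in the result was not tested. The megakaryocyte markers, which stand for another cell with granules, summed to 34.2 to 71.2 CPM in CFU-E and 52.3 to 76.4 CPM in PreCFU-E libraries. Vwf carried much of that sum, at 28.2 to 38.7 CPM in CFU-E against 21.8 to 23.9 CPM in PreCFU-E group means. Gp5 averaged 3.02 to 18.3 CPM in CFU-E against 18.1 to 28.4 CPM in PreCFU-E groups, and Gp1ba 1.61 to 4.51 against 5.23 to 9.67 CPM. Itga2b, the gene of CD41, was at most 7.91 CPM, Pf4 at most 0.176 CPM and Ppbp at 0 counts. Their part in the result was not tested.

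**Figure D3:**
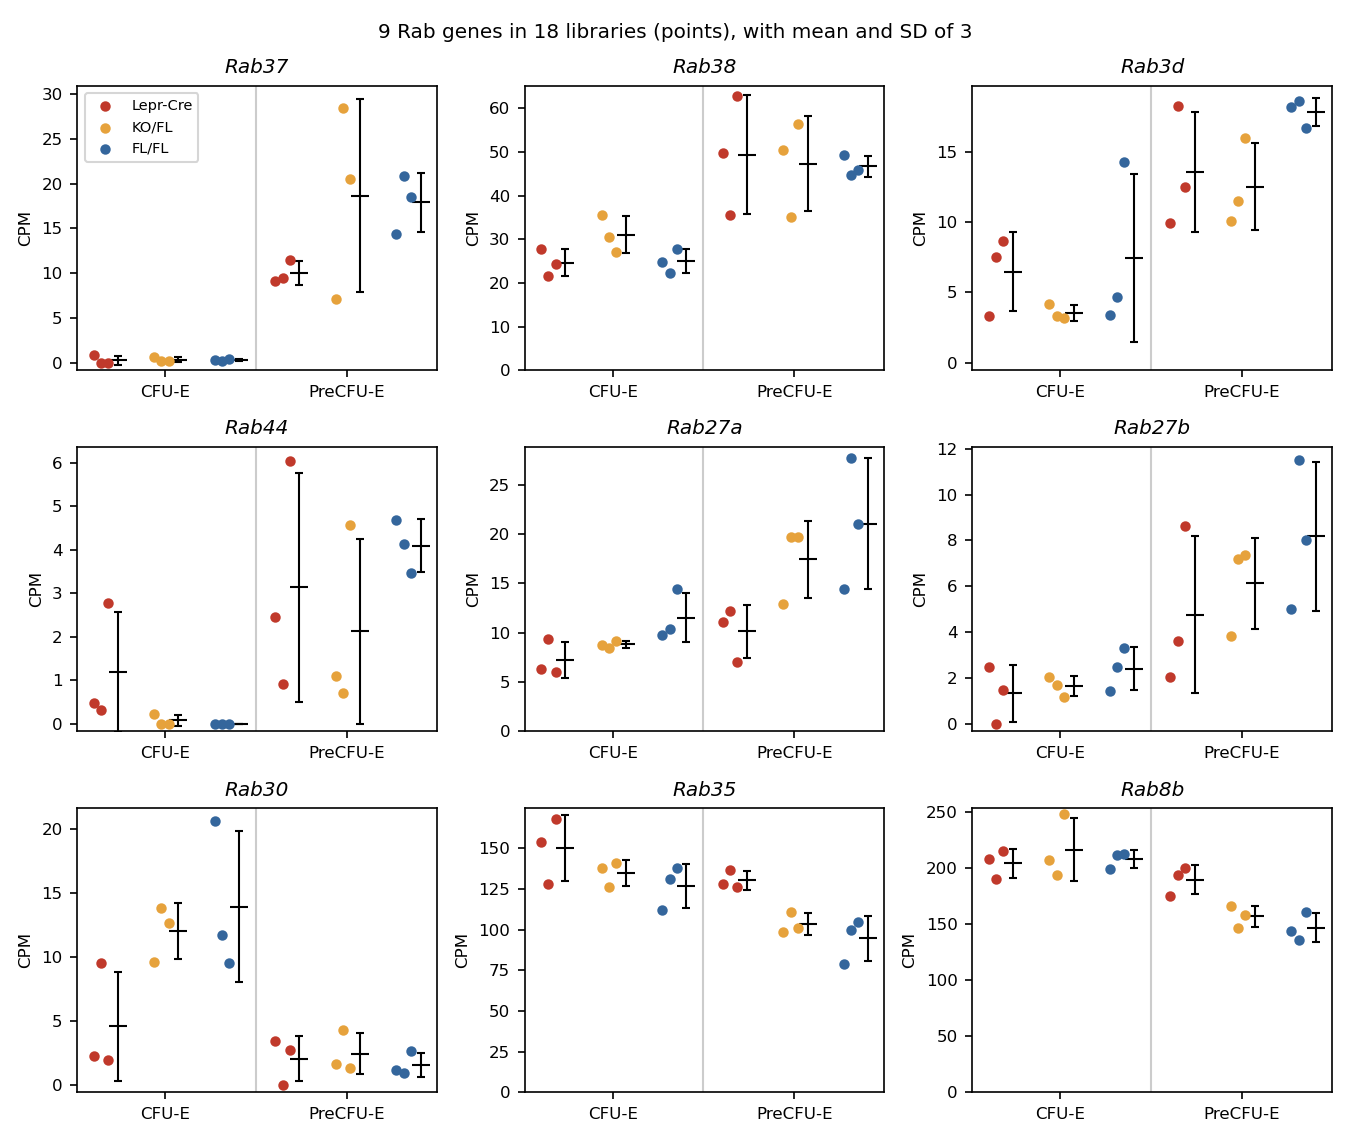
CPM of 9 Rab genes (panels) in each library (points, coloured by genotype), with the mean and SD of 3 libraries (black), CFU-E left and PreCFU-E right of the grey line. Rab37, Rab38, Rab3d and Rab27a sit lower in CFU-E, Rab35 and Rab8b sit lowest in PreCFU-E of mice without Cre, and Rab30 is high in CFU-E of mice without Cre.

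The members that rose were few. Rab8b, which carries cargo to the surface, had 199, 212 and 213 CPM in CFU-E of FL/FL mice, against 144, 136 and 161 CPM in PreCFU-E (log2 fold change 0.51, SE 0.11, edgeR adjusted p 0.000805). In KO/FL mice it had 207, 194 and 248 CPM in CFU-E, against 166, 147 and 158 CPM in PreCFU-E (0.46, SE 0.11, adjusted p 0.00296). Rab35, which returns receptors from endosomes to the surface, had 112, 131 and 138 CPM in CFU-E of FL/FL mice, against 79.0, 100 and 105 CPM in PreCFU-E (0.44, SE 0.12, adjusted p 0.0129). In KO/FL mice it had 138, 126 and 141 CPM in CFU-E, against 98.4, 111 and 101 CPM in PreCFU-E (0.38, SE 0.12, adjusted p 0.0376). The stages of these 4 comparisons did not overlap, but Rab35 lost its call without any of 3 libraries in FL/FL and 5 in KO/FL mice, and Rab8b in KO/FL mice without CFU-E replicate C (adjusted p 0.0578). In Lepr-Cre mice Rab8b averaged 205 ± 13.2 CPM in CFU-E and 190 ± 13.1 CPM in PreCFU-E, and Rab35 150 ± 20.2 and 131 ± 5.73 CPM (SD, n = 3 each), and neither passed.

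Rab30, a Golgi Rab, had 20.6, 11.7 and 9.47 CPM in CFU-E of FL/FL mice, against 1.14, 0.888 and 2.63 CPM in PreCFU-E (log2 fold change 3.16, SE 0.82, edgeR adjusted p 0.00849). The call was lost without PreCFU-E replicate A (adjusted p 0.0519) or B (0.0539). In KO/FL mice it had 9.55, 13.8 and 12.6 CPM in CFU-E, against 1.64, 4.30 and 1.32 CPM, and the stages were apart, with an edgeR adjusted p of 0.0609. DESeq2, limma on RPKM with either pseudocount and edgeR with no filter called it there. In CFU-E of Lepr-Cre mice 1 library had 9.49 CPM and the others 2.24 and 1.90 CPM, against 3.40, 0 and 2.70 CPM in PreCFU-E, and the stages overlapped. Rab6a, the Golgi member among the 10 highest, had 129, 105 and 124 CPM in CFU-E of KO/FL mice, against 97.6, 95 and 87.8 CPM in PreCFU-E, with an adjusted p of 0.0575, or 0.0264 with the mouse as a block.

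**Figure D4:**
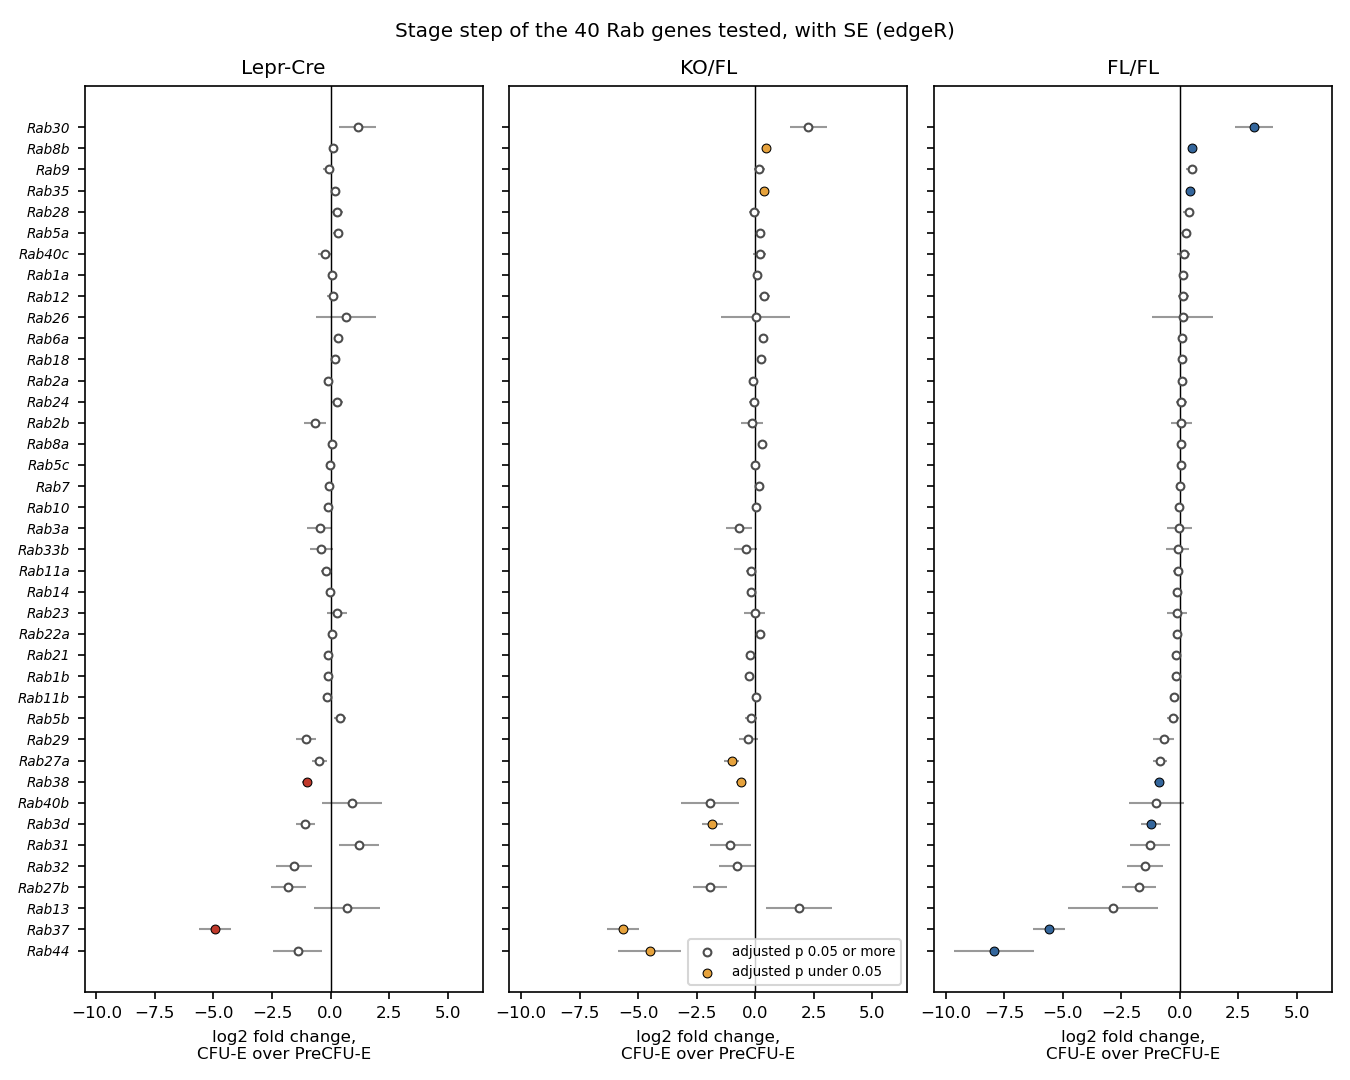
Log2 fold change of CFU-E over PreCFU-E with its SE for the 40 Rab genes tested (rows, ordered by the value in FL/FL mice), in Lepr-Cre, KO/FL and FL/FL mice. Filled points passed an adjusted p of 0.05: 2 in Lepr-Cre, 7 in KO/FL and 7 in FL/FL mice. Rab37 is filled in each, but its class was set by this difference. The fitted value of Rab44 in FL/FL mice rests on 0 counts in CFU-E.

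Whether the stage difference itself depends on genotype was tested as an interaction. No member passed edgeR's test for Lepr-Cre against FL/FL, Lepr-Cre against KO/FL or KO/FL against FL/FL, where 0.354%, 0% and 0% of all genes were called, and at an unadjusted p under 0.05 there were 3, 1 and 0 members. DESeq2 called none in these either. The smallest p in the first were those of Rab44 (adjusted p 0.239), Rab8b (0.398) and Rab31 (0.61). For Rab8b the step was 0.40 log2 units smaller in Lepr-Cre than in FL/FL mice (95% interval -0.71 to -0.09). Between Lepr-Cre and KO/FL mice the smallest p were those of Rab8b (-0.35, adjusted p 0.836), Rab31 (0.928) and Rab44 (0.935). Between KO/FL and FL/FL mice they were those of Rab22a, Rab13 and Rab6a, each with an adjusted p of 1. The calls that differ between genotypes are thus not shown to be different steps.

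The second comparison asks how the family differs within a stage between mice with and without Lepr-Cre, and between KO/FL and FL/FL mice. In PreCFU-E, 38 members were tested. Lepr-Cre mice had higher Rab35 and Rab8b and lower Rab27a than FL/FL mice. These 3 members were 7.89% of those tested, where 6.13% of all genes were called (2.89% higher and 3.24% lower), so the share was near the background. Groups did not overlap for 9 members, against a background of 25% of genes.

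Rab35 had 128, 137 and 126 CPM in Lepr-Cre PreCFU-E, against 79.0, 100 and 105 CPM in FL/FL PreCFU-E (log2 fold change 0.47, SE 0.13, edgeR adjusted p 0.0259). Rab8b had 175, 194 and 200 CPM, against 144, 136 and 161 CPM in FL/FL PreCFU-E (0.38, SE 0.11, adjusted p 0.0437). Rab27a had 11.1, 12.2 and 7.08 CPM, against 14.4, 27.7 and 21 CPM in FL/FL PreCFU-E (-1.04, SE 0.30, adjusted p 0.0436). The groups were apart for each of these. The calls are close to the threshold: leaving out any 1 of the 6 libraries left 0 or 1 members called, and limma on the deposited RPKM called none. Rab1a, of transport out of the endoplasmic reticulum, had 136, 166 and 162 CPM against 130, 127 and 99.3 CPM in FL/FL PreCFU-E, with an adjusted p of 0.0814, or 0.00537 with the replicate letter as a block. The stage comparison in FL/FL mice uses the same FL/FL PreCFU-E libraries. The early progenitor markers were lower in Lepr-Cre PreCFU-E, as given above, and Tfrc, the transferrin receptor, was higher (713 ± 130 CPM against 445 ± 82.3 CPM in FL/FL PreCFU-E, SD, n = 3 each). Their part in the result was not tested.

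Rab37 itself had 9.10, 9.49 and 11.5 CPM in Lepr-Cre PreCFU-E, against 7.13, 28.4 and 20.5 CPM in KO/FL and 14.4, 20.9 and 18.5 CPM in FL/FL PreCFU-E. The Lepr-Cre libraries lay below those of FL/FL mice and within those of KO/FL mice. The log2 fold change was -0.83 (SE 0.35) over FL/FL and -0.93 (SE 0.35) over KO/FL, with edgeR adjusted p of 0.18 and 0.209, and no difference was detectable between KO/FL and FL/FL (0.10, SE 0.34, adjusted p 1). Without KO/FL replicate A, the low library, Rab37 passed over KO/FL (-1.29, adjusted p 0.0209).

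The other genotype comparisons called no member with edgeR, and DESeq2 called none in them but Rab30 in CFU-E of Lepr-Cre against FL/FL mice. In PreCFU-E of Lepr-Cre against KO/FL mice, 2.18% of all genes were called. An unadjusted p under 0.05 was found for 5 of 38 members and for 1424 of all 10309 genes. Groups did not overlap for 5 members, with a background of 18.4%. The smallest p were those of Rab37, Rab35 (log2 fold change 0.33, adjusted p 0.219) and Rab27a (-0.80, adjusted p 0.22). With the replicate letter as a block, Rab35 passed (adjusted p 0.0488). In PreCFU-E of KO/FL against FL/FL mice, 0% of genes were called and 4 members did not overlap (background 9.09%). No member had a p under 0.05, against 350 of all 10309 genes. There Rab1a, Rab22a and Rab1b had the smallest p, with log2 fold changes of 0.27, -0.24 and 0.27.

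In CFU-E, 37 members were tested. Of Lepr-Cre against FL/FL libraries, 4.83% of all genes were called. An unadjusted p under 0.05 was found for 5 members and for 1973 of all 10192 genes. Groups did not overlap for 5 members (background 22.2%). Rab30 came first, with 2.24, 9.49 and 1.90 CPM in Lepr-Cre CFU-E against 20.6, 11.7 and 9.47 CPM in FL/FL CFU-E (log2 fold change -1.61, SE 0.50, edgeR adjusted p 0.0762). DESeq2 called it (adjusted p 0.0275), and edgeR did without Lepr-Cre replicate B, the high library (0.00143), or FL/FL replicate C (0.0457). Rab6a (0.38, adjusted p 0.0965) and Rab1a (0.29, adjusted p 0.147) followed. Of Lepr-Cre against KO/FL libraries 1.01% of genes were called, 2 members had a p under 0.05 (1218 of 10192 genes), and 6 did not overlap (background 17.3%). Rab40c (-0.77, adjusted p 0.192), Rab30 (-1.40, adjusted p 0.234) and Rab11b (-0.29, adjusted p 0.467) came first. Rab30 passed there without Lepr-Cre replicate B. Of KO/FL against FL/FL libraries 0% of genes were called, 1 member had a p under 0.05 (210 of 10192 genes), and 7 did not overlap (background 8.07%). The member was Rab13, at 0, 2.61 and 3.73 CPM in KO/FL CFU-E against 0, 0.117 and 0 CPM in FL/FL CFU-E. Rab3d (-1.08) and Rab1a (0.21) came after it. Rab13 was kept by the filter through KO/FL replicates B and C and Lepr-Cre replicate C (2.19 CPM), where it was high. It had 1 count in FL/FL CFU-E, so its p is no independent support. Rab13 is also among the members with a p under 0.05 for Lepr-Cre against FL/FL libraries, with the same limit.

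**Figure D5:**
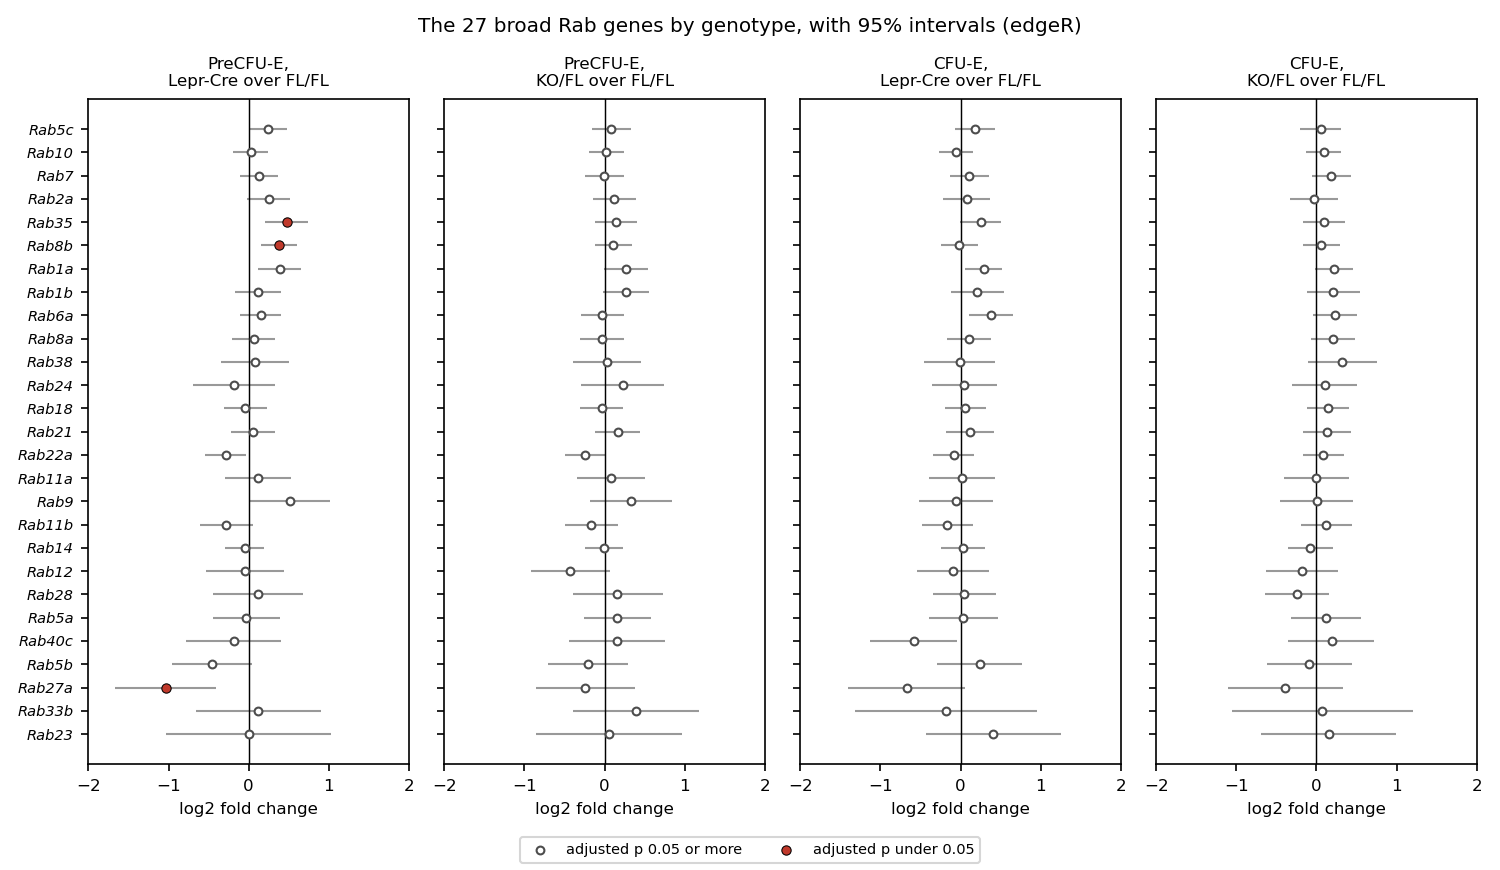
Log2 fold change with its 95% interval for the 27 broad Rab genes (rows, ordered by level per kilobase) over FL/FL mice, for Lepr-Cre and KO/FL PreCFU-E and for Lepr-Cre and KO/FL CFU-E (panels). Rab35, Rab8b and Rab27a in Lepr-Cre PreCFU-E are the filled points, with an adjusted p under 0.05, at 0.47, 0.38 and -1.04.

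The genes that act on Rabs were described from lists, by counts past the edgeR threshold. At the stage step, 3 of 28 tested genes of transferrin endocytosis and recycling rose in Lepr-Cre, 8 in KO/FL and 9 in FL/FL mice, and none fell. Of all genes 3%, 6.89% and 8.99% rose. The median log2 fold change of the list was 0.12, 0.19 and 0.19 in Lepr-Cre, KO/FL and FL/FL mice. In FL/FL mice Tfrc had a log2 fold change of 1.18 (SE 0.15, adjusted p 3.77e-06). The clathrin partners Picalm (0.84) and Ap2a1 (0.92) and the recycling factor Ehd1 (0.51) rose with it. Of the Rab members that serve this route, Rab35 passed in the same comparison and Rab5a, Rab5c, Rab11a and Rab11b did not.

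Of 24 tested granule and lysosome-related organelle genes, 3 fell in CFU-E of Lepr-Cre, 3 in KO/FL and 4 in FL/FL mice, where 4.25%, 7.18% and 9.3% of all genes fell. In FL/FL mice 1 rose. Srgn, the core of granule proteoglycan, fell in each, at 57.1 ± 8.34, 81.1 ± 9.74 and 70.5 ± 11.9 CPM in CFU-E of Lepr-Cre, KO/FL and FL/FL mice against 94.3 ± 7.74, 144 ± 27.1 and 142 ± 15.6 CPM in PreCFU-E (SD, n = 3 each). Nbeal2, needed for platelet granules, fell in FL/FL mice (-2.04, adjusted p 7.24e-05), as did Cd63 (-1.80, adjusted p 0.0233) and Stxbp2 (-0.42, adjusted p 0.036), and Stx11 rose (0.81). The lists overlap. Unc13d, which fell in Lepr-Cre and KO/FL mice, is also counted as an effector below. Hps1, which fell in Lepr-Cre mice, is also counted as an exchange factor.

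Regulators of the switch moved in both directions, and their counts stand beside 7.25%, 14.1% and 18.3% of all genes called in Lepr-Cre, KO/FL and FL/FL mice. Among 38 tested exchange factors 2 rose and 5 fell in Lepr-Cre, 6 rose and 3 fell in KO/FL, and 5 rose and 4 fell in FL/FL mice. Rab3il1, an exchange factor of the Rab8 group, averaged 33.8 ± 2.58 CPM in CFU-E of FL/FL mice against 1.22 ± 1.06 CPM in PreCFU-E (log2 fold change 4.71, adjusted p 6.72e-05), and St5 (2.14) and Dennd4a (0.63) rose while Madd, an exchange factor of Rab3 and Rab27, fell (-0.84). Among 38 tested GTPase-activating proteins 1 rose and 2 fell in Lepr-Cre, 3 rose and 2 fell in KO/FL, and 3 rose and 4 fell in FL/FL mice. Evi5 averaged 97.7 ± 21.3 CPM in CFU-E of FL/FL mice against 20.2 ± 4.68 CPM (2.27, adjusted p 4.59e-09), and Tbc1d4, the target of insulin signalling in muscle, 2.17 ± 1.24 against 20.9 ± 6.51 CPM (-3.31, adjusted p 4.06e-06). Of 34 tested effectors 1 rose and 5 fell in Lepr-Cre, 1 rose and 5 fell in KO/FL, and 3 rose and 6 fell in FL/FL mice. Optn, which binds Rab8, fell in each genotype (-0.68, -0.79 and -0.80 in Lepr-Cre, KO/FL and FL/FL mice). Of the 7 tested escort and prenylation genes 1 fell, Rabggta of the Rab prenyltransferase, in FL/FL mice (-1.06, adjusted p 0.00376).

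Between genotypes, Unc13d, the granule priming factor that binds Rab27, fell in Lepr-Cre mice at both stages. It averaged 60.3 ± 4.47 CPM in Lepr-Cre PreCFU-E against 101 ± 6.53 CPM in FL/FL PreCFU-E (log2 fold change -0.74, edgeR adjusted p 0.00112). In CFU-E it averaged 39.2 ± 7.15 CPM in Lepr-Cre against 83.4 ± 7.21 CPM in FL/FL libraries (-1.08, adjusted p 0.000511). Optn fell likewise, with log2 fold changes of -0.70 in PreCFU-E and -0.56 in CFU-E. Srgn fell in Lepr-Cre PreCFU-E (-0.58, adjusted p 0.0106). Tfrc (0.69), Picalm (0.45) and Ap2a1 (0.48) were the 3 of 28 transferrin genes that rose there, where 2.89% of all genes rose. None of 28 passed in CFU-E, where 4.83% of all genes were called. Ehbp1, an effector of the Rab8 group, fell in Lepr-Cre CFU-E (-1.48, adjusted p 0.000687), at 11.7 ± 1.04 CPM against 33.1 ± 9.36 CPM in FL/FL CFU-E. Among 36 tested exchange factors 1 fell in Lepr-Cre over FL/FL PreCFU-E, and among 34 in CFU-E 1 rose and 2 fell. Among 37 GTPase-activating proteins 1 rose and 1 fell in PreCFU-E, and 3 of 36 fell in CFU-E. Effectors fell in 2 of 34 and 3 of 33 cases, and granule genes in 2 of 24 and 1 of 23. Unc13d is counted in both of these lists, and it was the only granule gene called in CFU-E. Of all genes 6.13% were called in PreCFU-E and 4.83% in CFU-E, in either direction, and 3.24% were called lower in PreCFU-E. Rabgef1 fell in CFU-E over FL/FL (-0.71) and over KO/FL (-0.61). No gene of the 6 lists passed for KO/FL against FL/FL at either stage.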

How the data were processed

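RNA of sorted CFU-E and PreCFU-E was sequenced with a stranded total RNA kit, per the labels' protocols. The authors aligned reads with STAR 2.5.2b to mm10 and counted them per gene with HTSeq, per the submitters' processing notes, and the deposited counts are whole and not normalised. The sources used here name neither the annotation nor the strand setting. The deposited RPKM are the authors' own, and are those counts per library total and a gene length that did not follow annotated lengths, so levels between genes were set per kilobase of GENCODE M21 exon instead of by RPKM as planned.

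Counts were tested with edgeR 4.0.16 in R 4.3.3 (quasi-likelihood, robust, TMM, minimum count 10 and total 15), two-sided, with Benjamini-Hochberg adjustment over all genes tested and a threshold of 0.05. Genotypes were compared within the 9 libraries of a stage, and stages and interactions over all 18 libraries in 6 groups, with no block. Alternatives were DESeq2 1.42.0, its size factors, no filter, all 18 libraries, limma 3.58.1 on log2(RPKM + 1) or log2(RPKM + 0.1), a replicate block and leaving out each library. The edgeR fit without a block was tested on simulated data of the PreCFU-E libraries, for Lepr-Cre over FL/FL. The other fits and comparisons were not tested in this way. Replicates are separate mice.

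Both stages came from the same mice, so they are paired by design, and deviations of a mouse's libraries correlated at 0.111 to 0.197. Same-lettered libraries had r above 0.1 in every pair in 5 of the 6 genotype comparisons. In CFU-E of Lepr-Cre against FL/FL, r was 0.119, 0.127 and 0.0877 for A, B and C, so this limit was missed narrowly and for C only. No value for libraries of different letters is given beside these.

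Members, roles and lists were chosen with earlier results of these data known. Values were given for members past the threshold (or the 3 smallest p), Rab37, the 10 highest and up to 4 called genes a list. Other genes named were chosen after their values were seen.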

Additional observations from a re-analysis of the deposited data

How the results depend on the processing

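For Lepr-Cre over FL/FL PreCFU-E, where 3 members were called, limma on RPKM called 0 with either pseudocount. Of all genes limma called 263 with a pseudocount of 0.1 and 267 with 1, against 632 with edgeR. With no filter Rab8b was lost there (adjusted p 0.0535). For the stage, where 7 members were called in KO/FL and 7 in FL/FL mice, DESeq2 called 9 in each, adding Rab27b and Rab30 in KO/FL and Rab27a and Rab27b in FL/FL mice. Over all genes DESeq2 called 1703 in KO/FL and 2171 in FL/FL mice, against 1510 and 1963 with edgeR. Both limma fits called 5 in KO/FL mice, losing Rab35, Rab38 and Rab44 (adjusted p up to 0.252) and adding Rab30. They called 1473 of all genes there with a pseudocount of 0.1 and 1461 with 1. For Lepr-Cre over KO/FL PreCFU-E the letter block called 1 (Rab35), where 840 of all genes were called against 225 without the block. For Lepr-Cre over FL/FL CFU-E, where edgeR called 0, 1 member was called by DESeq2, with no filter and with the replicate block (Rab30 in each), and 1 with all 18 libraries (Rab44). In the same order these settings called 731, 751, 933 and 583 of all genes, against 492. Rab44 was kept in the fit of all 18 libraries through its PreCFU-E counts. In CFU-E it had 0 counts in each FL/FL library and 4, 2 and 19 in Lepr-Cre libraries, so its call there is no independent support. For Lepr-Cre over KO/FL CFU-E, 1 was called with no filter (Rab30), where 244 of all genes were called against 103. With the block, Rab30 had a log2 fold change of -1.79 (edgeR adjusted p 0.0171) in Lepr-Cre over FL/FL CFU-E, where r was not above 0.1 in every same-lettered pair. The replicate block changed no other member's call beyond those given with the results. Leaving out a library gave 0 to 1 calls in each Lepr-Cre comparison within a stage, 5 to 7 for the stage in FL/FL, 2 to 5 in KO/FL (7 with all libraries; 2 without CFU-E replicate C, 3 without PreCFU-E replicate C, 4 without CFU-E replicate A) and 2 in Lepr-Cre mice. Classes by RPKM gave 11 broad and 31 low members, and a 3-fold limit gave 2 restricted to PreCFU-E. Rab37 in KO/FL over FL/FL PreCFU-E (0.10) turned sign with limma (-0.13 with a pseudocount of 0.1 and -0.08 with 1), with the block (-0.01) and without FL/FL replicate A (-0.04), and ranged over left-out libraries from -0.33 to 0.46. The cause was not tested in these cases. Of 614 fold changes of members under alternatives, 543 kept direction and side of the threshold, 57 were no longer past it, 9 newly passed and 5 were opposite. The 614 include members that did not pass edgeR's test (the 3 smallest p, or Rab37), which had no call to lose. All 57 losses were thus of called members, for which 614 is too large a base. Depth limits what could be tested: 40 of the 59 members passed the filter for the stage comparison.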
